A study of Rattus norvegicus with 11 samples.

Results

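Expression of 10 genes of the Nrf2 antioxidant pathway was followed in the small intestine of brain-dead rats, with and without stimulation of the vagus nerve. The genes were taken by name, from a list drawn up with earlier results of these data known. They were Nfe2l2, Keap1, Sqstm1, Nqo1, Gclc, Gclm, Txnrd1, Prdx1, Prdx5 and Sod2. Of these 10, 9 had a probe set among the 11427 that were compared, and Prdx1 was not analysed here.

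The study hybridised 11 Affymetrix arrays, 1 per sample, with tissue from 3 groups. NBD (replicates 1, 3 and 4) stands for rats that were anaesthetised and ventilated for 6 hours without brain death. BD (replicates 1, 3, 4 and 6) stands for rats sampled 6 hours after brain death, and BD_VNS (replicates 1 to 4) for brain-dead rats that also received vagal stimulation and were sampled at the same time. All samples are described as intestine of transgenic rats; the labels name no transgene, strain, sex or age and do not say how the nerve was stimulated. For NBD, the sample source mentions BD animals as well, and the titles were followed. Nothing states that the arrays came from separate animals, so the p-values measure only the spread between these samples. Each value below is a log2 level, in which 1 unit is a 2-fold difference, and a level serves only to compare arrays for the same gene.

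Nrf2, the protein of Nfe2l2, is a transcription factor of the response to oxidants and electrophiles. In unstressed cells Keap1 hands it to a ubiquitin ligase and it is degraded. Oxidants and electrophiles modify Keap1, and Nrf2 then accumulates, pairs with a small Maf protein and binds antioxidant response elements near genes of glutathione synthesis, thioredoxin reduction and quinone reduction. Much of this control acts on the protein, which arrays do not measure. The gut epithelium meets dietary electrophiles and bacterial products and expresses many of these genes.

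The element's core, TGACNNNGC, was searched on both strands of the RefSeq promoter windows of GRCr8, which hold 250 bases before and 50 bases from a start site. The table holds 11 windows for the 10 genes, 2 of them for Txnrd1. The annotated genes Nfe2l2, Gclc, Txnrd1 and Prdx5 reach further upstream than their windows' start sites, so not all of their starts are covered. Of the 11 windows 6 held a match, against 12.1% of all 33469 windows. Among windows of the other Nrf2 target genes listed further below, 8 of 29 (27.6%) held one. The matches are shown because they let a reader set the genes that rose beside those that carry the letters. Each is printed 5′ to 3′ on the strand where it reads TGAC, with the core in capitals and up to 10 flanking bases.
Nfe2l2: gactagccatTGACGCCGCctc
Gclm: tggaagacaaTGACTAAGCagaaaccgca
Txnrd1: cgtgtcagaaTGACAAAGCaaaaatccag
Prdx1: cggcggggtaTGACTCAGCgctttccctg
Prdx5: cacccgcagaTGACTCTGCccacaggagg
Sod2: agctaggcgcTGACCCTGCcggcagcgcc

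These stretches lie at chr3:81028950-81028971 (Nfe2l2), chr2:213031953-213031981 (Gclm), chr7:22755964-22755992 (Txnrd1), chr5:135383761-135383789 (Prdx1), chr1:213532010-213532038 (Prdx5) and chr1:50050185-50050213 (Sod2). The match of Nfe2l2 runs with the gene, and its first base lies 38 bases after the window's start site. The other 5 read against the gene's direction, and along the gene their first bases lie at -172 (Gclm), -78 (Txnrd1), -135 (Prdx1), -1 (Prdx5) and -35 (Sod2). The windows of Keap1, Sqstm1, Nqo1 and Gclc, and the other window of Txnrd1, had no match. A match describes letters only, and elements outside these windows were not searched.

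Some arrays stood apart before any comparison. Array means were 8.17 to 8.18, and all 13 measured enterocyte markers of 23 listed lay above the array median in every array. The 18 measured pancreatic acinar markers of 23 listed had a mean level of 13.58 in BD 4 and of 13.02 in BD 6, while the mean lay between 6.90 and 7.68 in each of 9 remaining arrays. In BD 4 and BD 6, 17 of the 18 lay above the array median, against 1 to 5 elsewhere. The 3′ over 5′ signal, as log2, of the Gapdh and Actb controls, a sign of RNA quality, was 0.69 to 0.87 in NBD, 0.76 to 0.89 in BD and 0.75 to 1.10 in BD_VNS. Calls lost without BD 4 and BD 6, or with the 3′/5′ signal as a covariate, are given beside the genes named.

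Among the genes that set Nrf2 activity, Nfe2l2 rose in brain death and was highest after stimulation, Keap1 did not pass in any comparison, and Sqstm1 fell with stimulation. Nfe2l2 (Entrez Gene 83619), which encodes Nrf2, was at 11.10, 10.87 and 10.88 in the NBD arrays. It was at 11.41, 11.62, 11.18 and 11.46 in BD 1, 3, 4 and 6, and at 11.85, 11.64, 11.56 and 11.88 in BD_VNS 1 to 4. All BD and BD_VNS arrays were above all NBD arrays, while BD 3 lay above BD_VNS 3, so BD and BD_VNS overlapped. Such a lack of overlap held for 20.4% of all probe sets between BD and NBD, and for 20.9% between BD_VNS and NBD.

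The mean of Nfe2l2 was 10.95 ± 0.13 (SD, n = 3) in NBD, 11.42 ± 0.19 (SD, n = 4) in BD and 11.73 ± 0.15 (SD, n = 4) in BD_VNS. BD was 1.38-fold higher than NBD (log2 fold change 0.47 ± 0.11, SE; limma adjusted p = 0.0258). BD_VNS was 1.72-fold higher than NBD (0.78 ± 0.11, SE; limma adjusted p = 0.00149), a change larger in size than that of 99.4% of probe sets. The step from BD to BD_VNS did not pass (0.32 ± 0.10, SE; 95% interval 0.10 to 0.53; limma adjusted p = 0.0834). The rise in BD over NBD did not pass without NBD 3 (limma adjusted p = 0.116), NBD 4 (0.0929), BD 3 (0.0617) or BD 6 (0.0679). That of BD_VNS over NBD passed in all 20 other fits, with adjusted p from 0.000128 to 0.0291.

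**Figure D1:**
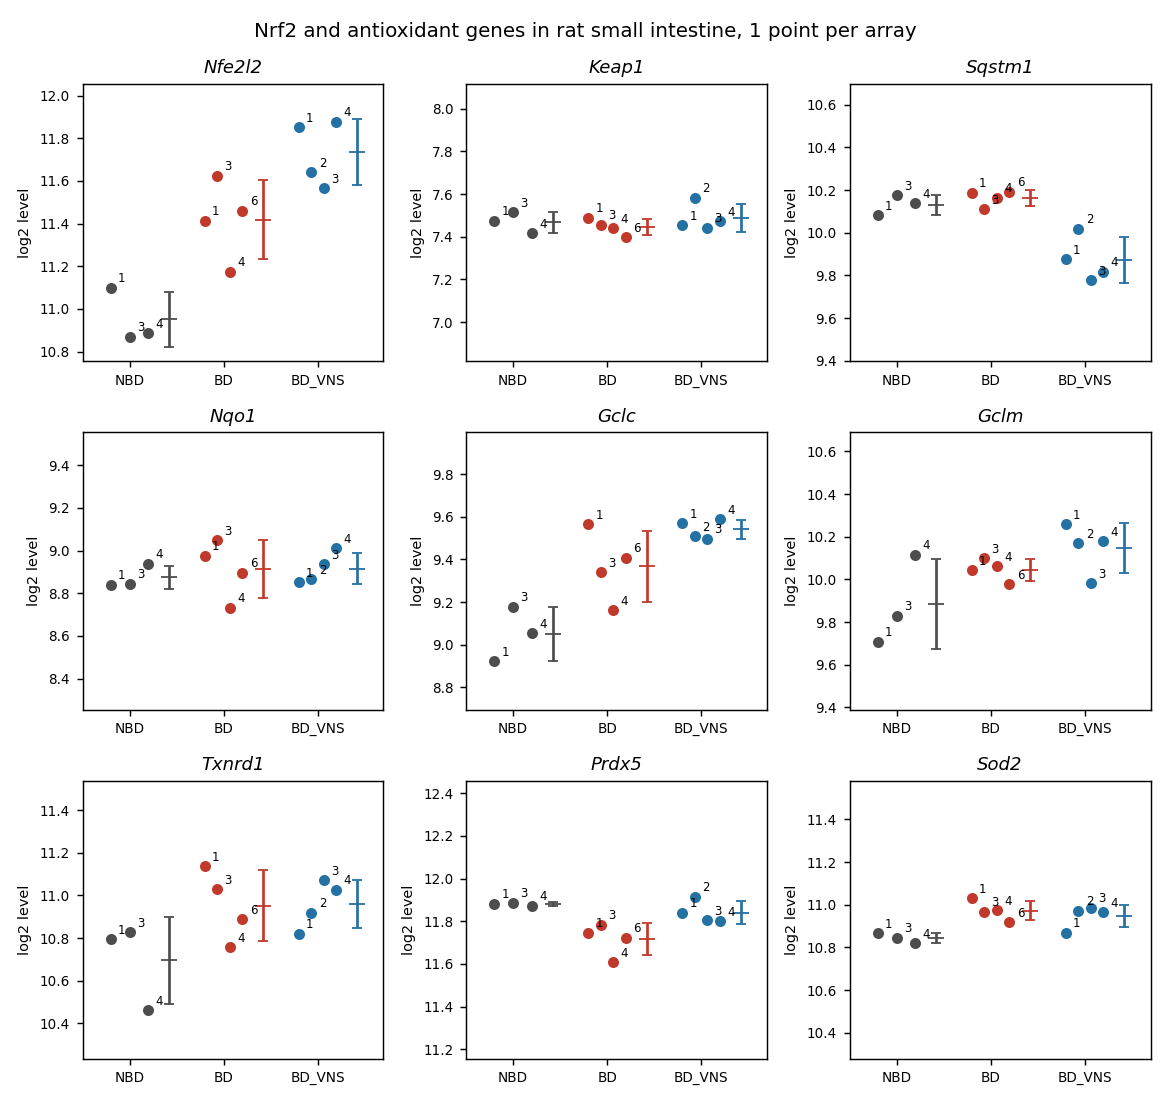
Log2 level (vertical axis, the same span of 1.3 units in each panel) of the 9 measured genes in each array of NBD, BD and BD_VNS, with replicate numbers beside the points and the group mean ± SD to the right of each group. Nfe2l2 and Gclc step upward from NBD to BD_VNS, Sqstm1 is lower in BD_VNS, and Keap1 and Nqo1 lie level across the groups.

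Keap1 (Entrez Gene 117519), the adaptor that delivers Nrf2 for degradation, was at 7.42 to 7.51 in NBD, 7.40 to 7.49 in BD and 7.44 to 7.58 in BD_VNS. The groups overlapped in every pairing. Its change was -0.02 in BD against NBD (95% interval -0.12 to 0.08; limma adjusted p = 0.855) and 0.04 in BD_VNS against BD (-0.05 to 0.13; limma adjusted p = 0.6). In BD_VNS against NBD it was 0.02 (-0.08 to 0.12; limma adjusted p = 0.86).

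Sqstm1 (Entrez Gene 113894) encodes p62, an autophagy receptor that binds Keap1 and is itself induced through Nrf2. Its level was 10.08, 10.18 and 10.14 in NBD, and 10.19, 10.11, 10.16 and 10.19 in BD 1, 3, 4 and 6. In BD_VNS 1 to 4 it was 9.88, 10.02, 9.78 and 9.82. All BD_VNS arrays lay below all others, and BD_VNS 2 was the closest to them. Of all probe sets, 13.1% had no overlap between BD_VNS and BD, and 20.9% none between BD_VNS and NBD.

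BD_VNS was 1.22-fold lower than BD in Sqstm1 (log2 fold change -0.29 ± 0.05, SE; limma adjusted p = 0.0111) and 1.20-fold lower than NBD (-0.26 ± 0.06, SE; limma adjusted p = 0.0146). BD and NBD differed by 0.03 (95% interval -0.09 to 0.15; limma adjusted p = 0.823). Without BD 4 and BD 6 the change from BD was -0.28 and did not pass (limma adjusted p = 0.0771). Against NBD the call was lost with the 3′/5′ signal as covariate, at -0.16 (limma adjusted p = 0.187), and without NBD 3 (0.0734) or NBD 4 (0.052).

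Markers of other cells moved with the fall of Sqstm1. Of 14 measured macrophage markers of 19 listed, 10 fell and 0 rose in BD_VNS against BD, and the list averaged 8.48 to 8.62 in the BD arrays and 7.69 to 8.23 in BD_VNS, where BD_VNS 2 was highest. BD_VNS 2 also had the lowest 3′/5′ signal of its group, 0.75 against 1.03 to 1.10. Of 16 matrix fibroblast markers, 11 fell and 0 rose, with array means of 9.64 to 9.84 in BD and 8.85 to 9.35 in BD_VNS. Of 5 goblet cell markers of 7 listed, 3 fell, from 12.01 to 12.21 in BD to 11.34 to 11.83 in BD_VNS. Enterocyte markers went the other way, with 4 of 13 up and 0 down, and array means of 11.89 to 12.15 in BD and 12.09 to 12.27 in BD_VNS. Over all probe sets 1.9% passed upward and 3.66% downward in BD_VNS against BD. Fewer cells of a type and less RNA per cell cannot be told apart in whole tissue, and the part of these markers in the Sqstm1 change was not tested.

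Of the subunits of glutamate-cysteine ligase, the catalytic subunit rose against NBD and the modifier subunit did not pass. Gclc (Entrez Gene 25283) encodes the catalytic subunit of glutamate-cysteine ligase, the rate-limiting enzyme of glutathione synthesis. Its level was 8.92, 9.18 and 9.05 in NBD, 9.56, 9.34, 9.16 and 9.41 in BD 1, 3, 4 and 6, and 9.57, 9.51, 9.50 and 9.59 in BD_VNS 1 to 4. BD_VNS lay wholly above NBD, whereas BD 4 was below NBD 3 and BD 1 was above BD_VNS 2 and BD_VNS 3. BD_VNS and NBD did not overlap in 20.9% of all probe sets.

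Gclc averaged 9.05 ± 0.13 (SD, n = 3) in NBD, 9.37 ± 0.17 (SD, n = 4) in BD and 9.54 ± 0.04 (SD, n = 4) in BD_VNS. BD_VNS was 1.40-fold higher than NBD (log2 fold change 0.49 ± 0.08, SE; limma adjusted p = 0.00479), and this passed in all 20 other fits (0.00107 to 0.0422). BD was 1.25-fold higher than NBD with a limma adjusted p of 0.0499 (0.32 ± 0.08, SE), just under the threshold of 0.05. In 14 of 20 other fits it did not pass (0.0122 to 0.208 over the 20), among them that with the 3′/5′ covariate (0.32; 0.0644) and those without NBD 1, NBD 3, NBD 4, BD 1, BD 3, BD 6 or any single BD_VNS array, and these single-array fits gave changes of 0.25 to 0.38. BD_VNS against BD did not pass (0.17; 95% interval 0.002 to 0.34; limma adjusted p = 0.214).

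Gclm (Entrez Gene 29739), the modifier subunit that raises the enzyme's affinity for glutamate, was at 9.71, 9.83 and 10.12 in NBD. It was at 9.98 to 10.10 in BD and 9.98 to 10.26 in BD_VNS. NBD 4 lay just above the highest BD array and within the range of BD_VNS, and NBD 1 and NBD 3 lay below both groups.

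The change of Gclm was 0.16 in BD against NBD (95% interval -0.03 to 0.35; limma adjusted p = 0.363), 0.10 in BD_VNS against BD (-0.08 to 0.28; limma adjusted p = 0.501) and 0.26 in BD_VNS against NBD (0.07 to 0.46; limma adjusted p = 0.093). The last passed without NBD 4, at 0.38 (limma adjusted p = 0.0182).

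**Figure D2:**
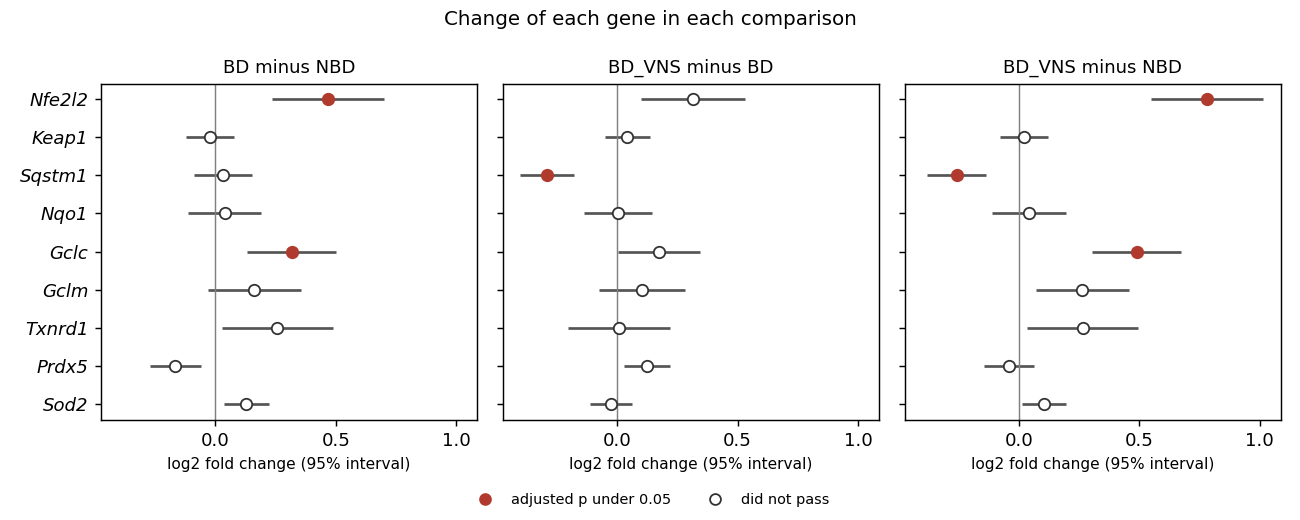
Log2 fold change (horizontal axis) of each gene in the 3 comparisons, with its 95% interval from limma; filled points passed at an adjusted p under 0.05 over all probe sets. Nfe2l2 and Gclc are filled in BD minus NBD and in BD_VNS minus NBD, and Sqstm1 is filled on the negative side in both comparisons of BD_VNS.

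Among the 9 genes, the enzymes that reduce thioredoxin, peroxides and quinones did not pass in any comparison. Txnrd1 (Entrez Gene 58819), cytosolic thioredoxin reductase, was at 10.79, 10.83 and 10.46 in NBD, 11.14, 11.03, 10.76 and 10.89 in BD, and 10.82, 10.92, 11.07 and 11.03 in BD_VNS. NBD 4 was the lowest array and BD 1 the highest. The change was 0.26 in BD against NBD (95% interval 0.03 to 0.49; limma adjusted p = 0.206), 0.26 in BD_VNS against NBD (0.03 to 0.49; limma adjusted p = 0.156) and 0.007 in BD_VNS against BD (-0.21 to 0.22; limma adjusted p = 0.976).

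Prdx5 (Entrez Gene 113898), a peroxiredoxin found in mitochondria, peroxisomes and the cytosol, was at 11.88, 11.89 and 11.87 in NBD and at 11.75, 11.78, 11.61 and 11.72 in BD. It was at 11.84, 11.92, 11.80 and 11.80 in BD_VNS. All BD arrays lay below all arrays of both other groups. Of all probe sets, 20.4% had no overlap between BD and NBD, and 13.1% none between BD_VNS and BD. The changes were -0.17 ± 0.05 (SE) in BD against NBD (limma adjusted p = 0.0712) and 0.12 ± 0.04 (SE) in BD_VNS against BD (limma adjusted p = 0.123), and neither passed. Without BD 4 and BD 6 they were -0.12 and 0.07.

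Nqo1 (Entrez Gene 24314), the quinone reductase that is often used as a readout of Nrf2, was at 8.84, 8.84 and 8.94 in NBD, 8.98, 9.05, 8.73 and 8.90 in BD, and 8.85, 8.87, 8.93 and 9.01 in BD_VNS. The BD arrays spanned the range of both other groups, with BD 4 the lowest of all arrays and BD 3 the highest. The change was 0.04 in BD against NBD (95% interval -0.11 to 0.19; limma adjusted p = 0.829), 0.002 in BD_VNS against BD (-0.14 to 0.14; limma adjusted p = 0.987) and 0.04 in BD_VNS against NBD (-0.11 to 0.19; limma adjusted p = 0.801). The upper bound against NBD, 0.19, lay below the estimates for Nfe2l2 and Gclc; the difference between genes was not tested.

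Sod2 (Entrez Gene 24787), the manganese superoxide dismutase of mitochondria and also a target of NF-kB, was at 10.87, 10.85 and 10.82 in NBD. It was at 11.03, 10.97, 10.97 and 10.92 in BD and at 10.87, 10.97, 10.99 and 10.97 in BD_VNS. All BD and BD_VNS arrays were above all NBD arrays, BD_VNS 1 by the least. Of all probe sets, 20.4% had no overlap between BD and NBD, and 20.9% none between BD_VNS and NBD. The change was 0.13 ± 0.04 (SE) in BD against NBD (limma adjusted p = 0.111) and 0.10 ± 0.04 (SE) in BD_VNS against NBD (limma adjusted p = 0.166). BD_VNS against BD gave -0.02 (95% interval -0.11 to 0.06; limma adjusted p = 0.756).

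Markers of other cells moved where Nfe2l2 and Gclc rose. In BD against NBD, 4 of 13 enterocyte markers fell, with array means of 12.21 to 12.32 in NBD and 11.89 to 12.15 in BD, and 2 of 9 measured smooth muscle markers of 11 listed rose, from 9.81 to 10.01 in NBD to 10.01 to 10.41 in BD. Of 16 matrix fibroblast markers 3 rose and 0 fell, with array means of 9.40 to 9.57 in NBD and 9.64 to 9.84 in BD. In BD_VNS against NBD, 8 of 14 macrophage, 5 of 16 matrix fibroblast and 2 of 5 goblet cell markers fell, and 2 of 9 smooth muscle markers rose. Of the 13 enterocyte markers 1 fell there, with a median of -0.06, 5 changes positive and 8 negative. Over all probe sets 3.64% passed upward and 4.8% downward in BD_VNS against NBD, and 2.1% and 3.63% in BD against NBD. Of 8 hepatocyte and 3 measured erythroid markers of 5 listed, 0 passed in any comparison with limma; 1 to 3 hepatocyte and 0 to 1 erythroid markers had an unadjusted p under 0.05. The part of these cells in the rises was not tested.

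In BD 4, the array with the highest acinar levels, 5 of the 9 genes had their lowest value of the BD group, and 0 had their highest. BD_VNS 3 likewise held the lowest value of its group for 5 genes, and NBD 1 and NBD 4 for 4 each. The 5 genes lowest in BD 4 were Nfe2l2, Gclc, Nqo1, Txnrd1 and Prdx5. BD 6, which also had high acinar levels, held the lowest value of the BD group for 3 genes and the highest for 1. How often each array was lowest over all probe sets was not counted, and a link with acinar content was not tested. Without BD 4 and BD 6, the change in BD against NBD was 0.57 for Nfe2l2 (limma adjusted p = 0.0244), 0.40 for Gclc (0.0337), 0.39 for Txnrd1 (0.105) and 0.14 for Nqo1 (0.298). The first 2 passed in that fit, as in the one with all arrays. Against BD 1 and BD 3 alone, the change in BD_VNS was 0.21 for Nfe2l2, 0.09 for Gclc, -0.12 for Txnrd1 and -0.10 for Nqo1, and none of these passed.

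Taken by comparison, brain death against ventilation alone gave 2 rises (Nfe2l2 and Gclc) and 0 falls among the 9 genes, with a median log2 change of 0.13, against -0.006 over all probe sets. Over all 11427 probe sets 5.73% passed, 2.1% upward and 3.63% downward. Vagal stimulation within brain death gave 0 rises and 1 fall (Sqstm1), where 5.56% of all probe sets passed, 1.9% upward and 3.66% downward; the medians were 0.04 and 0.03. Stimulated brain-dead rats against ventilated controls gave 2 rises (Nfe2l2 and Gclc) and 1 fall (Sqstm1), where 8.44% passed, 3.64% upward and 4.8% downward; the medians were 0.10 and 0.01. The comparisons share groups, so their calls are not separate evidence.

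Other Nrf2 target genes that passed lay in both directions. Of 34 listed, 20 were measured. In BD against NBD, 1 rose and 2 fell, with a median of -0.04, where 2.1% of all probe sets passed upward and 3.63% downward. Hmox1, which degrades heme and is induced through Nrf2 when Bach1 releases its enhancers, was at 8.64, 9.06 and 9.02 in NBD, 9.62, 9.71, 9.64 and 9.47 in BD, and 9.40, 9.21, 9.62 and 9.47 in BD_VNS. NBD lay below both other groups. Groups did not overlap in 20.4% of all probe sets for BD and NBD, and in 20.9% for BD_VNS and NBD. It rose by 0.71 ± 0.11 (SE) in BD (limma adjusted p = 0.00313) and was 0.52 ± 0.11 higher in BD_VNS than in NBD (limma adjusted p = 0.0141); the latter did not pass with the 3′/5′ signal as covariate (0.38; limma adjusted p = 0.171) or without NBD 1 (0.39; 0.0575). Pir, an iron-binding nuclear protein, fell by 0.39 in BD (limma adjusted p = 0.0408), and Mgst2, a microsomal glutathione transferase, fell by 0.22 (limma adjusted p = 0.0265). Hmox1 passed in all 20 other fits. Pir and Mgst2 did not pass without BD 4 and BD 6 together, or without BD 4, BD 6 or NBD 4 alone; the call of Pir was also lost without NBD 1 or any of BD_VNS 1, 3 and 4, and that of Mgst2 without NBD 3 or BD 3.

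In BD_VNS against BD, 1 of the 20 rose and 1 fell, where 1.9% of all probe sets passed upward and 3.66% downward. Mgst1, a microsomal glutathione transferase that is abundant in liver, rose by 0.22 ± 0.05 (SE; limma adjusted p = 0.0356), and Gstm1, a cytosolic glutathione transferase, fell by 0.29 (limma adjusted p = 0.0245). Neither passed without BD 4 and BD 6 together, without either of them or BD_VNS 1, 3 or 4 alone, or with the 3′/5′ signal as covariate. In BD_VNS against NBD, 3 rose and 3 fell, with a median of 0.03, where 3.64% of all probe sets passed upward and 4.8% downward. Besides Hmox1, the glutathione transferase Gsta3 (0.38 ± 0.10, SE) and the aldehyde reductase Akr7a3 (0.23 ± 0.05) rose, while Pir (-0.39 ± 0.10), Gstm1 (-0.36 ± 0.07) and the aldehyde oxidase Aox1 (-0.20 ± 0.05) fell. With the 3′/5′ covariate 0 rose and 1 fell, which was Aox1. In that fit the call of Gstm1 was lost, at -0.30 (limma adjusted p = 0.105). The calls of Gsta3, Akr7a3, Pir and Aox1 were each lost without NBD 1 or BD_VNS 4, among other single arrays, whereas that of Gstm1 held whichever single array was left out. Txn1, Gsr and Gpx2, which encode thioredoxin, glutathione reductase and the gut glutathione peroxidase, did not pass in any comparison; their changes ran from -0.05 to 0.27.

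**Figure D3:**
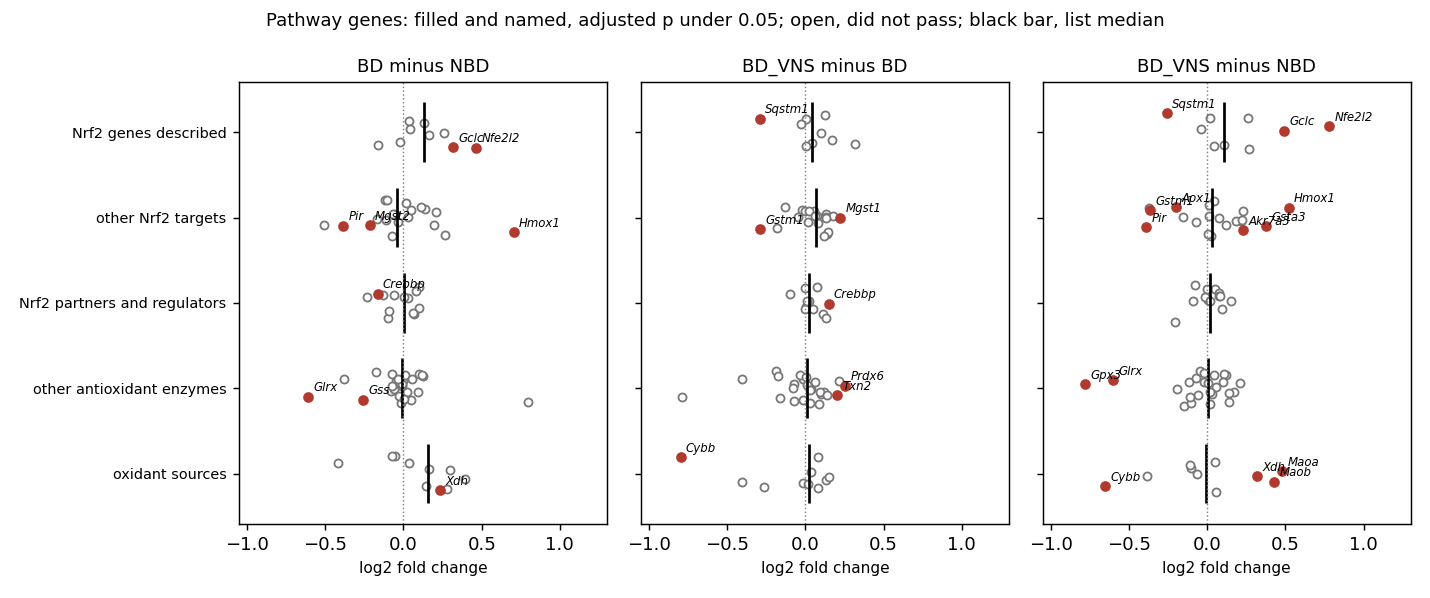
Log2 fold change (horizontal axis) of each measured gene of the 5 lists in the 3 comparisons; filled points with names passed at an adjusted p under 0.05, open points did not, and black bars mark list medians. Filled points lie on both sides of 0 in the list of other Nrf2 targets in each comparison; the unnamed open point near 0.79 in BD minus NBD and near -0.79 in BD_VNS minus BD is Prdx4.

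Of 16 partners and regulators of Nrf2, 13 were measured. Where 3.63% of all probe sets passed downward and 2.1% upward in BD against NBD, 1 of the 13 fell and 0 rose. That gene was Crebbp, which encodes a histone acetyltransferase that Nrf2 recruits. Crebbp was at 8.02 to 8.06 in NBD, 7.84 to 7.91 in BD and 7.96 to 8.06 in BD_VNS, so BD lay below both other groups, as 20.4% of all probe sets had no overlap between BD and NBD and 13.1% none between BD_VNS and BD. It fell by 0.17 ± 0.04 (SE) in BD (limma adjusted p = 0.0297) and rose by 0.15 ± 0.04 (SE) from BD to BD_VNS (limma adjusted p = 0.0366), and neither passed without BD 4 and BD 6 together, or without BD 3, BD 6 or any 1 NBD array. The rise was also lost with the 3′/5′ covariate (0.16; limma adjusted p = 0.0618) and without BD 1, BD 4, BD_VNS 1 or BD_VNS 4. Bach1, a repressor that competes with Nrf2, changed by -0.23 in BD against NBD (limma adjusted p = 0.102), and Cul3, the ligase scaffold that Keap1 binds, by 0.10 (limma adjusted p = 0.3). In BD_VNS against NBD 0 of the 13 passed with limma, against 8.44% of all probe sets, and 1 of the 13 had an unadjusted p under 0.05.

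Of 28 other antioxidant enzymes 25 were measured. In BD against NBD 0 rose and 2 fell, where 2.1% of all probe sets passed upward and 3.63% downward. Glrx, glutaredoxin, which reduces protein-glutathione mixed disulfides, was at 12.68, 12.45 and 12.46 in NBD, 11.87 to 11.97 in BD and 11.85 to 12.01 in BD_VNS. NBD lay above all other arrays, where 20.4% of all probe sets had no overlap between BD and NBD and 20.9% none between BD_VNS and NBD. It fell by 0.61 ± 0.06 (SE) in BD (limma adjusted p = 0.000164) and by 0.61 ± 0.06 in BD_VNS against NBD (limma adjusted p = 0.000217), and both passed in all 20 other fits. Gss, glutathione synthetase, which acts after glutamate-cysteine ligase, fell by 0.26 in BD (limma adjusted p = 0.0465), whereas Gclc rose, and did not pass without BD 4 and BD 6 or in 11 of the 19 remaining fits, among them that with the 3′/5′ covariate (-0.24; limma adjusted p = 0.0739) and those without any 1 NBD array, BD 1, BD 4, BD 6, BD_VNS 3 or BD_VNS 4.

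Where 1.9% of all probe sets passed upward and 3.66% downward in BD_VNS against BD, 2 of the 25 rose and 0 fell. They were Prdx6, a peroxiredoxin that also acts on phospholipids (0.25 ± 0.07, SE; limma adjusted p = 0.0453), and Txn2, mitochondrial thioredoxin (0.20 ± 0.05, SE; limma adjusted p = 0.0495). Neither passed without BD 4 and BD 6, with the 3′/5′ covariate, or without any 1 of NBD 1, 3 and 4, BD 4, BD 6 and BD_VNS 1, 3 and 4. Gpx3, a secreted glutathione peroxidase, was at 10.15 to 10.25 in NBD, 9.74 to 9.88 in BD and 9.53, 9.85, 9.27 and 9.07 in BD_VNS 1 to 4. It was 0.78 ± 0.14 (SE) lower in BD_VNS than in NBD (limma adjusted p = 0.00567), and Glrx was the other fall, with 0 rises. Over all probe sets 3.64% passed upward and 4.8% downward there. Gpx3 did not pass with the 3′/5′ covariate (-0.51; limma adjusted p = 0.0888). Without BD 4 and BD 6 in the fit, 2 rose and 2 fell. Cat and Sod1, catalase and the copper-zinc superoxide dismutase, did not pass in any comparison and changed by -0.12 to -0.01. Cat was at 10.97 to 11.03 in NBD, 10.81 to 10.99 in BD and 11.22, 10.11, 11.06 and 11.13 in BD_VNS 1 to 4. BD_VNS 2 lay below all NBD and BD arrays and the other BD_VNS arrays lay above them. The negative sign of the Cat changes in BD_VNS thus came from BD_VNS 2.

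The biggest difference in this list, chosen after its values were seen, was that of Prdx4, a peroxiredoxin of the endoplasmic reticulum. It was at 11.90 in BD 4 and 10.78 in BD 6, which held the acinar transcripts, and at 9.93 and 9.96 in BD 1 and BD 3. NBD and BD_VNS arrays lay between 9.66 and 10.10. Its changes of 0.79 in BD against NBD and -0.79 in BD_VNS against BD did not pass (limma adjusted p = 0.27 and 0.195).

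Among 16 genes whose products make oxidants, 10 were measured. Among all probe sets, 20.4% had no overlap between BD and NBD, 13.1% none between BD_VNS and BD and 20.9% none between BD_VNS and NBD. Xdh, xanthine oxidoreductase, was at 12.47, 12.44 and 12.28 in NBD, 12.59 to 12.70 in BD and 12.64 to 12.75 in BD_VNS, with NBD below both. It rose by 0.24 ± 0.05 (SE) in BD (limma adjusted p = 0.0236), the 1 call of the list there, and was 0.32 ± 0.05 higher in BD_VNS than in NBD (limma adjusted p = 0.00406). The rise in BD did not pass without BD 4 and BD 6 together, or without NBD 3, NBD 4, BD 1, BD 3 or BD 6 alone. Maoa and Maob, the monoamine oxidases, which release hydrogen peroxide, were 0.48 ± 0.11 and 0.43 ± 0.10 (SE) higher in BD_VNS than in NBD (limma adjusted p = 0.0202 and 0.0222). Both calls were lost with the 3′/5′ covariate and without NBD 3, BD_VNS 1 or BD_VNS 4, that of Maoa also without NBD 1 and that of Maob without NBD 4.

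Cybb, the catalytic subunit of the phagocyte NADPH oxidase, was at 7.60 to 7.88 in NBD, 7.78 to 8.05 in BD and 7.13, 7.52, 6.95 and 6.79 in BD_VNS 1 to 4. All BD_VNS arrays lay below all others, with BD_VNS 2 the nearest, as for Sqstm1 and for the macrophage markers described above. BD_VNS did not overlap BD in 13.1% of all probe sets, or NBD in 20.9%. Cybb fell by 0.80 ± 0.13 (SE) from BD to BD_VNS (limma adjusted p = 0.0081), and this passed in all 20 other fits. It was 0.65 ± 0.14 lower in BD_VNS than in NBD (limma adjusted p = 0.0141), which did not pass with the 3′/5′ covariate (-0.35; limma adjusted p = 0.191) or without NBD 3 or NBD 4. Duox2, the epithelial oxidase, changed by -0.42 in BD against NBD and did not pass (limma adjusted p = 0.223).

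For the genes that passed somewhere, the closest patterns over the 11 arrays were taken by the root mean square difference between log2 levels, each centred on its gene's mean. For Nfe2l2 they were Tfrc, the transferrin receptor (0.12, where Nfe2l2 itself varied by 0.34 about its mean), and Etl4 (0.12). Tfrc averaged 9.88 in NBD, 10.37 in BD and 10.54 in BD_VNS. For Gclc they were Dbp, a transcription factor under clock control (0.08, against 0.22 for Gclc itself), which averaged 9.80, 10.12 and 10.27, and Tnks1bp1 (0.10). For Sqstm1 they were Plxdc2 (0.05, against 0.15 for Sqstm1 itself), which averaged 7.72, 7.75 and 7.48, and Fndc3b (0.05). Among the 9 genes themselves, the closest to Nfe2l2 was Gclc (0.19) and the farthest was Sqstm1 (0.45).

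**Figure D4:**
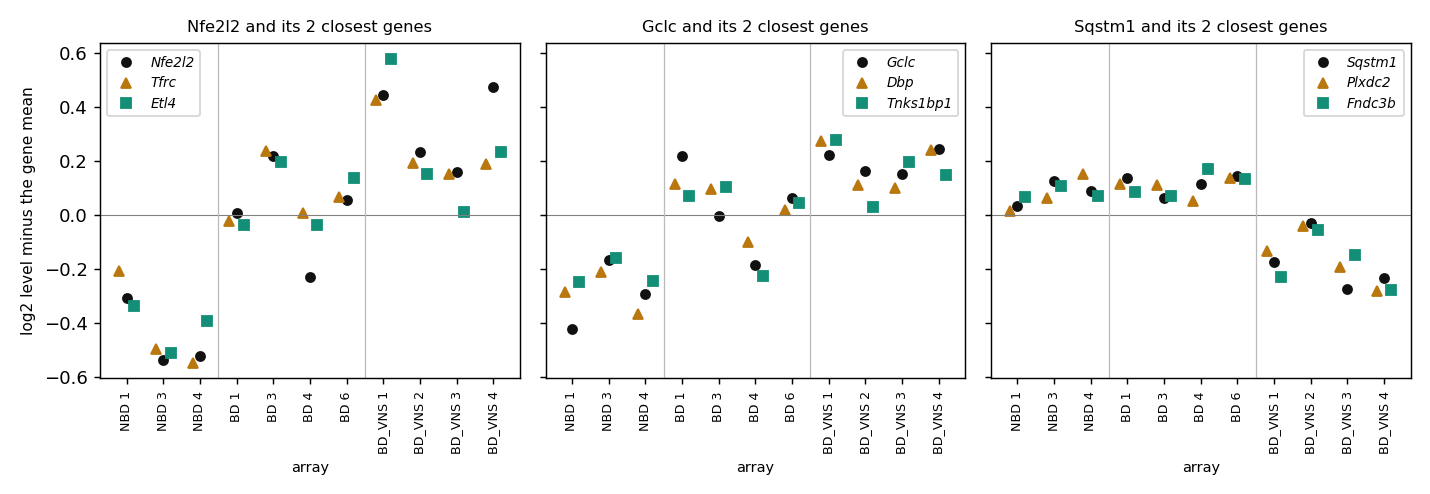
Log2 level minus the gene's mean over 11 arrays (vertical axis) for Nfe2l2, Gclc and Sqstm1 and the 2 genes closest to each, by array (horizontal axis), with vertical lines between NBD, BD and BD_VNS. The points of Nfe2l2 lie below 0 in NBD and above 0 in BD_VNS, and those of Sqstm1 lie below 0 in all 4 BD_VNS arrays.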

How the data were processed

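Total RNA from small intestine was extracted with Trizol and labelled with biotin for Affymetrix arrays, per the labels' protocols. The authors deposited log2 values per probe set and array; that they are log2 was read from their range (5.36 to 14.48). No source used here names the software, background correction or normalization. Each probe set carries 1 Entrez number. Of the table, 57 control probe sets were left out, 11427 were tested with no filter, and 409 of these have no symbol here. The number of arrays limits precision.

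A single limma fit (limma 3.58.1, R 4.3.3; lmFit and eBayes) held the 3 groups, taken from the titles. Benjamini-Hochberg adjustment ran over the 11427 probe sets, and an adjusted p below 0.05 counted as passed. The 10 genes, the lists and the tests were chosen with earlier results of these data known. Named were all 10 genes, the genes of each pathway list that passed (where over 5 did, those with the smallest p), a set of well-known pathway genes where measured, and the 2 genes closest in pattern. Fits were checked on simulated data. Other fits, 20 per gene, changed the variance model, scaling, filter, groups, weights, replicate block, the 3′/5′ covariate, or the arrays left out. Pathway genes were refitted where they had passed. Promoter windows came from RefSeq (GRCr8).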

Additional observations from a re-analysis of the deposited data

How the results depend on the processing

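Of 540 refits of the 9 genes (3 comparisons, 20 other fits), 490 kept direction and side of the threshold, 22 lost the call, 6 gained it and 22 changed sign. In BD against NBD, 2 genes passed; 1 did with arrays centred on their medians, with only the 2 groups compared and with the 3′/5′ covariate, and 0 to 2 did with 1 array left out (0 without NBD 3, NBD 4, BD 3 or BD 6). In BD_VNS against BD, 1 passed; 2 did with array weights and at an adjusted p under 0.10, and 0 without BD 4 and BD 6. In BD_VNS against NBD, 3 passed, and 2 to 3 with 1 array left out.

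Replicate numbers recur across groups, but same-numbered arrays did not deviate together (9 pairs, correlations -0.24 to 0.07, 0 over 0.1). Differently numbered pairs ran from -0.22 to 0.19. With so few arrays per group, these correlations cannot tell whether a number marks a shared origin. With the number as a replicate block 1 gene passed in BD against NBD.

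Most sign changes were small. Those of Txnrd1 and Nqo1 in BD_VNS against BD without BD 4 and BD 6 were larger in size than the median absolute change of all probe sets there, 0.066. In BD against NBD, Keap1 was 0.0103 with the covariate, 0.00486 without BD 4 and BD 6, and -0.0483 to 0.000854 with 1 array left out; Nqo1 was -0.00601 to 0.0993 with 1 left out. In BD_VNS against BD, Nqo1 was -0.0335 with the covariate, -0.0964 without BD 4 and BD 6 and -0.0576 to 0.0477 with 1 left out. Txnrd1 was -0.00322 after quantile normalization, -0.123 without BD 4 and BD 6 and -0.0584 to 0.0685 with 1 left out, and Sod2 was -0.0432 to 0.00146. In BD_VNS against NBD, Keap1 was -0.0217 with array weights and -0.0115 to 0.0429 with 1 left out; with the covariate Nqo1 was -0.0143 and Prdx5 0.0164. Calls gained were Prdx5 in BD against NBD (quantile normalization, array weights, without BD_VNS 2), Nfe2l2 in BD_VNS against BD (array weights) and Gclm in BD_VNS against NBD (array weights, without NBD 4). The cause was not tested for any of these.

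Over all probe sets, 655, 635 and 965 passed in the 3 comparisons in that order. The counts were 1642, 1628 and 2599 with array weights, and 1036, 1265 and 1545 at an adjusted p under 0.10. Without BD 4 and BD 6, 293 passed in BD against NBD and 152 in BD_VNS against BD. With the covariate 363 passed in BD_VNS against NBD and 415 in BD_VNS against BD, where 343 passed with only those 2 groups. Leaving out 1 array gave 317 to 882, 279 to 1108 and 494 to 1638 in that order. Of 25 pathway calls, 5 passed in every fit: Hmox1 and Glrx in BD against NBD, Cybb in BD_VNS against BD, and Glrx and Xdh in BD_VNS against NBD.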
